A study of Mus musculus with 40 samples.

Results

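Cxcl1, Cxcl2 and Cxcl3 are the 3 CXC chemokines described here, as 3 of the 27179 genes in the deposited expression table. They were picked on the values themselves, because Cxcl3 and Cxcl1 were higher in Cpeb4-/- cells at 6 hr, so the genotype difference at 6 hr is given below as a description without a test. The other 4 time points are other libraries of the same mice and were tested. The cells were bone marrow-derived macrophages (BMDMs), which are macrophages grown from marrow with conditioned medium of L cells as the source of the growth factor M-CSF. They came from adult male mice of a mixed C57BL/6J and 129 background, either wild type (WT) or lacking Cpeb4 in the whole body (Cpeb4-/-), which encodes an RNA-binding protein of cytoplasmic polyadenylation. Cells of 4 WT mice (25, 69, 87 and 88) and 4 Cpeb4-/- mice (2, 3, 55 and 62) were left untreated (0 hr) or given 10 ng/ml of lipopolysaccharide (LPS), a bacterial outer membrane component, for 1, 3, 6 or 9 hr, which makes 40 libraries with 4 in each group. Batch 1 held WT mice 25 and 88 and Cpeb4-/- mice 3 and 62, and batch 2 held the other 4 mice. WT mice came from cages 9, 100 and 101 and Cpeb4-/- mice from cages 8, 10 and 104, so cage and genotype cannot be told apart.

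Cxcl1, Cxcl2 and Cxcl3 encode small secreted proteins of the ELR-positive CXC family. They bind the receptor CXCR2 on neutrophils and draw these cells out of the blood toward the site of infection. Macrophages that sense LPS through TLR4 switch the genes on within minutes through NF-κB, and their mRNAs carry AU-rich elements that let proteins such as tristetraprolin (encoded by Zfp36) shorten their life. CPEB proteins bind U-rich cytoplasmic polyadenylation elements in 3′ untranslated regions.

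All values are regularized log (rlog) values, a log2 scale on which 1 unit is a 2-fold difference. The scale is not corrected for gene length, so levels of different genes are not compared with each other, and depth per library is not part of the table. Libraries of one genotype and time correlated with r from 0.998 to 0.999 in 60 pairs. Cpeb4 itself separated the genotypes at 6 hr (WT 10.09 to 10.67, Cpeb4-/- 8.74 to 9.66) and overlapped between them at 0, 1, 3 and 9 hr, so at those times genotype rests on the labels alone. All 9 macrophage markers were measured above the filter, with Adgre1, which encodes F4/80, between 15.51 and 16.45 over the 40 libraries. In bulk RNA, fewer cells of a kind and less RNA per cell cannot be told apart.

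The 3 genes lie within 119.8 kb of each other on the plus strand of chromosome 5 in mouse build GRCm38 (mm10). Cxcl3 is at chr5:90786103-90789600, Cxcl1 at chr5:90891241-90893115 and Cxcl2 at chr5:90903871-90905938 in the GENCODE annotation. Promoters were matched in RefSeq (GRCm38.p6) for 3 of 3 members. The stretches below run from 120 bases before to 20 bases after the RefSeq gene start, and they are shown because all 3 genes rose together in the first hour. Capitals mark the κB-like letters GGAATTTCC and the TATA-box-like letters ATAAAA.
Cxcl1, chr5:90891125-90891264, plus strand: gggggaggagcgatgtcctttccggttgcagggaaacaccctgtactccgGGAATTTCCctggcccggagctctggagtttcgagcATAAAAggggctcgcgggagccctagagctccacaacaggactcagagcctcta
Cxcl2, chr5:90903779-90903918, plus strand: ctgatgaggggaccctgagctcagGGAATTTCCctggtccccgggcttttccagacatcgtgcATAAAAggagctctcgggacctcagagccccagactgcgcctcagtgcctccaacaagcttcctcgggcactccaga
Cxcl3, chr5:90785981-90786120, plus strand: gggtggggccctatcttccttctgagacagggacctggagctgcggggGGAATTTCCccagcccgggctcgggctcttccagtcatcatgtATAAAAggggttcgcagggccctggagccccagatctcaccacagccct

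The κB-like letters began 70 bases before the gene start in Cxcl1, 96 in Cxcl2 and 72 in Cxcl3. Of all 32851 RefSeq promoter windows of 250 bases before to 50 after the start, 0.317% hold them on either strand. The letters ATAAAA began 34 bases before the start in Cxcl1, 57 in Cxcl2 and 29 in Cxcl3, and 11.1% of all windows hold them on the gene's strand. These distances depend on the annotated start. For Cxcl2 the RefSeq start, chr5:90903899, lies downstream of the GENCODE start, chr5:90903871, from which both distances would be shorter. The RefSeq starts of Cxcl1 (chr5:90891245) and Cxcl3 (chr5:90786101) lie within a few bases of their GENCODE starts. The longer TATAAA was present in Cxcl3 alone of the 3, against 8.32% of all windows. The letters TGAGTCA (AP-1; 5.2% of all windows), TGACGTCA (CRE; 1.79%) and TTGCGCAA (C/EBP; 0.183%), read on both strands, were absent from all 3 windows.

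Cxcl1 and Cxcl2 rose to their highest value at 1 hr in 8 of 8 mice, whereas Cxcl3 reached its highest value at 3 hr in 8 of 8 mice. In WT BMDMs, Cxcl1 was 8.97, 8.89, 8.97 and 8.91 before LPS (mice 25, 69, 87 and 88) and 14.49, 13.96, 14.67 and 14.44 after 1 hr. Cxcl2 went from 11.50, 11.62, 11.54 and 11.49 to 16.38, 16.50, 16.60 and 16.49, and Cxcl3 from 7.48, 7.50, 7.50 and 7.46 to 10.30, 10.47, 10.27 and 10.24. The values at 1 hr did not overlap those at 0 hr for any member.

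The rise from 0 to 1 hr in WT was 5.45 for Cxcl1 (SE 0.12, 43.8-fold, limma adjusted p = 1.8e-18), 4.95 for Cxcl2 (SE 0.11, 30.9-fold, adjusted p = 1.8e-18) and 2.84 for Cxcl3 (SE 0.17, 7.14-fold, adjusted p = 3.6e-11). By the size of the change, Cxcl1 ranked 2, Cxcl2 ranked 4 and Cxcl3 ranked 43 of 13100 genes tested, of which 33.9% were called at an adjusted p under 0.05. In Cpeb4-/- BMDMs the rises were 5.29, 4.71 and 2.98 and ranked 1, 4 and 42 of 13116 genes, of which 43.8% were called. All 3 members therefore passed the test in both genotypes, and the first hour gave Cxcl1 and Cxcl2 changes among the largest of any gene.

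The members parted between 1 and 3 hr. In WT, Cxcl1 fell by 1.33 (SE 0.12, limma adjusted p = 4.7e-09) and Cxcl2 fell by 1.48 (SE 0.11, adjusted p = 2.4e-10), while Cxcl3 rose by a further 1.50 (SE 0.17, adjusted p = 2.3e-07). In this step 60.1% of the genes were called in WT and 64% in Cpeb4-/-. In Cpeb4-/- cells Cxcl1 fell by 0.94 and Cxcl2 fell by 1.14, and Cxcl3 rose by 2.08 (limma adjusted p = 7.9e-06, 3.0e-09 and 8.5e-10).

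From 3 to 9 hr all 3 mRNAs declined in both genotypes. The WT changes were −3.33 for Cxcl1, −2.15 for Cxcl2 and −2.80 for Cxcl3, and 67.3% of all genes were called in this step. The changes in Cpeb4-/- were −3.35, −2.34 and −2.09, with 70.1% of genes called. Every one of these 6 declines passed the test (largest limma adjusted p 6.7e-10). At 9 hr the mRNAs were still above their untreated level, by 0.80, 1.33 and 1.54 for Cxcl1, Cxcl2 and Cxcl3 in WT and by 1.01, 1.24 and 2.97 in Cpeb4-/- (largest limma adjusted p 4.6e-06), where 71.5% of genes were called in WT and 72.8% in Cpeb4-/-.

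**Figure D1:**
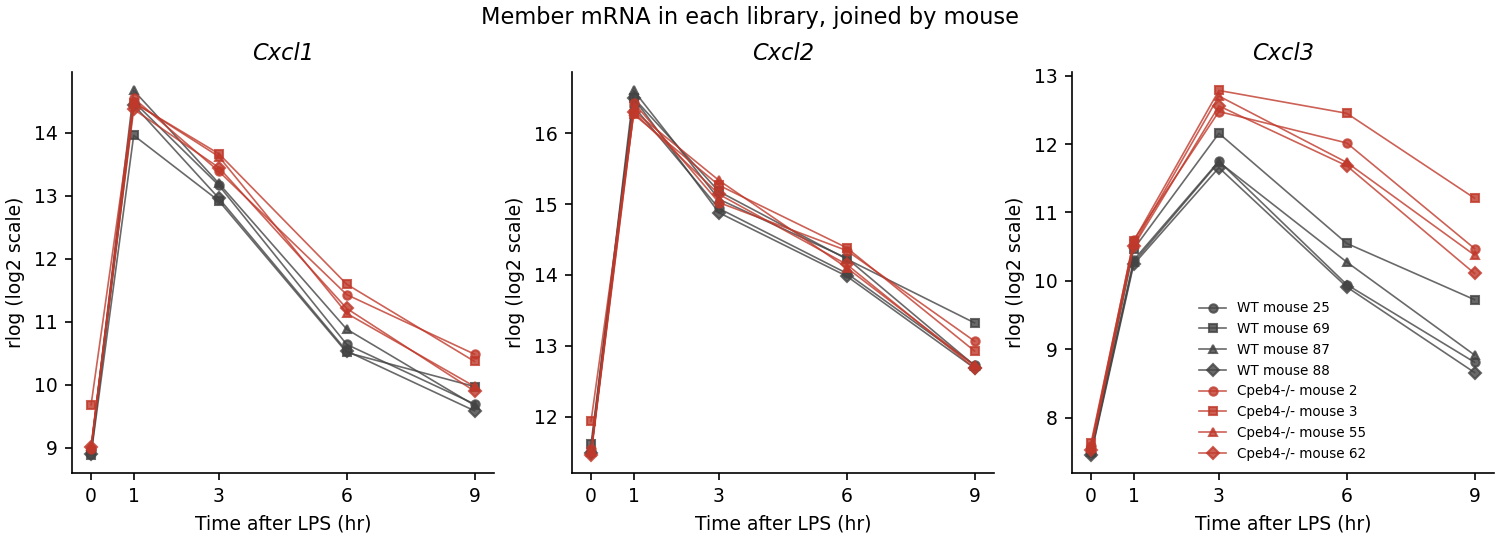
The rlog value (log2 scale) of each member against hours after LPS, with 1 line per mouse, WT in grey and Cpeb4-/- in red. Cxcl1 and Cxcl2 peak at 1 hr, with the genotypes of Cxcl2 overlapping throughout and those of Cxcl1 apart at 0, 3 and 6 hr, while Cxcl3 peaks at 3 hr and its 4 Cpeb4-/- lines run above the 4 WT lines, at 10.11 to 11.21 against 8.66 to 9.72 at 9 hr.

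Cxcl3 was the member that differed most between the genotypes after 3 hr of LPS and later, with 1.75-fold more mRNA in Cpeb4-/- cells at 3 hr and 2.86-fold more at 9 hr. In untreated cells the WT libraries were at 7.46 to 7.50 and the Cpeb4-/- libraries of mice 2, 3, 55 and 62 at 7.59, 7.63, 7.56 and 7.52. The groups did not overlap, but the difference of 0.09 (SE 0.06) did not pass limma (adjusted p = 0.43), where 1.31% of 13095 genes were called. The two-sided exact permutation test gave p = 0.029, the smallest that 4 against 4 libraries allow.

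At 1 hr Cxcl3 was at 10.60, 10.58, 10.53 and 10.51 in Cpeb4-/- mice 2, 3, 55 and 62, again above every WT library (10.24 to 10.47). The difference of 0.24 (SE 0.06, 1.18-fold) had a limma adjusted p of 0.066 and an exact permutation p of 0.029, with 1.91% of 13118 genes called. WT mouse 69 was the highest WT library, and without it the difference was 0.28 with an adjusted p of 0.026. Without WT mouse 88 the limma adjusted p was 0.18, and over 16 alternatives it ranged from 0.026 to 0.31.

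At 3 hr Cxcl3 was at 11.75, 12.16, 11.74 and 11.66 in WT mice 25, 69, 87 and 88. In Cpeb4-/- mice 2, 3, 55 and 62 it was at 12.48, 12.79, 12.70 and 12.56. The lowest knockout value exceeded the highest WT value, which was that of mouse 69. The difference of 0.81 (SE 0.11, limma adjusted p = 0.0053) ranked 78 by size among 13083 genes, of which 3.68% were called. It was 0.97 within batch 1 and 0.64 within batch 2, and its adjusted p lay between 0.00066 and 0.042 over 16 alternatives.

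At 6 hr, the time used to pick these genes, Cxcl3 was at 9.95, 10.55, 10.27 and 9.91 in WT mice 25, 69, 87 and 88 and at 12.02, 12.45, 11.73 and 11.68 in Cpeb4-/- mice 2, 3, 55 and 62. The groups lay more than 1 unit apart. The difference of the means was 1.80, and within batches 1 and 2 it was 2.14 and 1.46.

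At 9 hr the WT libraries of mice 25, 69, 87 and 88 were at 8.81, 9.72, 8.91 and 8.66 for Cxcl3. The Cpeb4-/- libraries of mice 2, 3, 55 and 62 were at 10.47, 11.21, 10.38 and 10.11. Mouse 69 was again the highest in WT and mouse 3 the highest in Cpeb4-/-, and the groups stayed apart. The difference was 1.51 (SE 0.26, 2.86-fold, limma adjusted p = 0.0081), rank 18 by size of 13008 genes, of which 7.91% were called. It was 1.93 within batch 1 and 1.10 within batch 2. Without the filter on low values its adjusted p was 0.0503, just past the threshold.

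The spread of Cxcl3 between mice was larger at 9 hr than before LPS. At 0, 1, 3, 6 and 9 hr the SD over 4 WT mice was 0.02, 0.10, 0.23, 0.30 and 0.48, and over 4 Cpeb4-/- mice 0.05, 0.04, 0.14, 0.35 and 0.47. At 9 hr the SD was 0.13 in WT without mouse 69 and 0.19 in Cpeb4-/- without mouse 3. At all 4 times after LPS, mouse 69 was the highest WT mouse and mouse 88 the lowest. Among the Cpeb4-/- mice, mouse 3 was highest at 3 of 4 times and mouse 62 lowest at 3 of 4 times.

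Cxcl1 showed a smaller genotype difference in the same direction. In untreated cells it was at 8.98, 9.68, 9.03 and 9.01 in Cpeb4-/- mice 2, 3, 55 and 62, against 8.89 to 8.97 in WT. Mouse 3 alone stood well above the others, and the difference of 0.24 (SE 0.13) did not pass limma (adjusted p = 0.36, two-sided exact permutation p = 0.029). Without mouse 3 it was 0.069 (limma adjusted p = 0.64). At 1 hr, at the peak, Cxcl1 was at 14.55, 14.47, 14.49 and 14.37 in Cpeb4-/- and at 13.96 to 14.67 in WT. The Cpeb4-/- values lay inside the WT range, with a difference of 0.08 (SE 0.13, limma adjusted p = 0.67).

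At 3 hr Cxcl1 was at 13.16, 12.92, 13.19 and 12.96 in WT mice 25, 69, 87 and 88 and at 13.39, 13.66, 13.62 and 13.45 in Cpeb4-/- mice 2, 3, 55 and 62. The groups were apart, with a difference of 0.47 (SE 0.08, 1.39-fold, limma adjusted p = 0.017). It was 0.49 within batch 1 and 0.45 within batch 2. The call was lost without Cpeb4-/- mouse 3 (0.43, adjusted p = 0.067) and with no filter on low values (adjusted p = 0.071).

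At 6 hr, again the time of the choice, Cxcl1 was at 10.64, 10.51, 10.88 and 10.53 in WT mice 25, 69, 87 and 88. It was at 11.43, 11.59, 11.13 and 11.21 in Cpeb4-/- mice 2, 3, 55 and 62, a difference of 0.70 with no overlap. At 9 hr the WT libraries were at 9.69, 9.97, 9.67 and 9.59 and the Cpeb4-/- libraries at 10.49, 10.37, 9.97 and 9.90. Cpeb4-/- mouse 62 then fell below WT mouse 69, so the groups overlapped. The difference of 0.45 (SE 0.13, 1.37-fold) had a limma adjusted p of 0.063 and an exact permutation p of 0.057. It passed the threshold in a single fit of all 40 libraries (adjusted p = 0.021), in the same fit with the mouse as replicate block (adjusted p = 0.017) and with batch as a covariate (adjusted p = 0.043), and over 16 alternatives the adjusted p ranged from 0.017 to 0.17.

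Cxcl2, the neighbour of Cxcl1 and its closest match over time among the members, did not pass the test at any of the 4 times. At 1 hr it was at 16.43, 16.26, 16.31 and 16.29 in Cpeb4-/- mice 2, 3, 55 and 62, and 3 of these 4 values lay below every WT library (16.38 to 16.60). The difference there was −0.17 (SE 0.06, unadjusted limma p = 0.025, adjusted p = 0.11, two-sided exact permutation p = 0.057). At 3 hr it was at 14.94, 15.18, 15.07 and 14.88 in WT and at 15.02, 15.26, 15.33 and 15.14 in Cpeb4-/-, a difference of 0.17 (SE 0.08, limma adjusted p = 0.24) between groups that overlapped.

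The 9 hr libraries put Cxcl2 at 12.73, 13.33, 12.72 and 12.69 in WT mice 25, 69, 87 and 88 and at 13.07, 12.93, 12.73 and 12.69 in Cpeb4-/- mice 2, 3, 55 and 62. Mouse 69 stood far above the other WT mice, and the groups overlapped throughout. The difference was −0.01 (SE 0.14, limma adjusted p = 0.96), and without mouse 69 it was 0.14 (adjusted p = 0.41). In untreated cells (WT 11.49 to 11.62, Cpeb4-/- 11.47 to 11.94) it was 0.08 (SE 0.09, limma adjusted p = 0.66), and at 6 hr (13.98 to 14.24 and 14.10 to 14.38) it was 0.13.

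**Figure D2:**
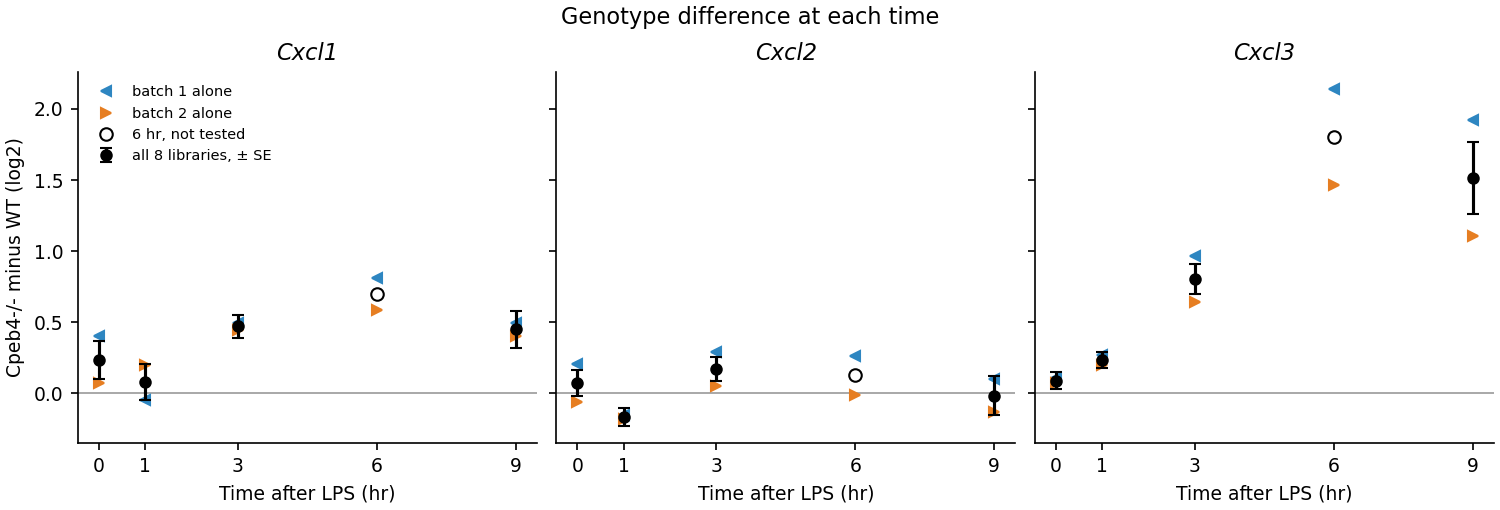
The log2 difference Cpeb4-/- minus WT of each member against hours after LPS, as black points with the standard error of limma, an open circle at 6 hr where no test was made, and triangles for the 2 batches taken alone. Cxcl3 goes from 0.09 at 0 hr to 0.81 at 3 hr, 1.80 at 6 hr and 1.51 at 9 hr with both batches above 0 at each time, Cxcl1 stays between 0.08 and 0.70, and Cxcl2 stays between −0.17 and 0.17.

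Counted over the 3 members, 0 were called at 0 and 1 hr (0 and 2 at an unadjusted limma p under 0.05), 2 were higher in Cpeb4-/- after 3 hr and 1 after 9 hr, and none was lower (1.31%, 1.91%, 3.68% and 7.91% of all genes were called in either direction). The median difference of the 3 was 0.09, 0.08, 0.47 and 0.45 at 0, 1, 3 and 9 hr, beside a median over all genes tested of 0.006, 0.016, 0.0077 and 0.0044. Leaving out 6 hr, the Cpeb4-/- libraries exceeded every WT library at 4 of 4 times for Cxcl3, at 2 of 4 for Cxcl1 and at 0 of 4 for Cxcl2. The share of all genes separated in this way was not computed, and the same mice recur at each time. These counts are therefore descriptions only.

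Whether the change with time differed between the genotypes was tested in 1 limma model of all 40 libraries. Between 0 and 9 hr Cxcl3 rose by 1.43 more in Cpeb4-/- than in WT (SE 0.26, limma adjusted p = 0.0012), which ranked 6 by size of 13103 genes, of which 1.76% were called. Every Cpeb4-/- mouse gained more (2.59 to 3.58) than any WT mouse (1.20 to 2.22). For Cxcl1 the same difference was 0.21 (adjusted p = 0.81) and for Cxcl2 it was −0.09 (adjusted p = 0.94), and neither passed.

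In the shorter steps 0 members were called, and 0, 2 and 1 of the 3 had an unadjusted limma p under 0.05 in the steps from 0 to 1, 1 to 3 and 3 to 9 hr. From 0 to 1 hr the differences in change were −0.16 for Cxcl1, −0.24 for Cxcl2 and 0.15 for Cxcl3 (0.00763% of genes called), and from 1 to 3 hr they were 0.39, 0.34 and 0.57 (0.13% called). From 3 to 9 hr they were −0.02, −0.19 and 0.71, with 4.14% of genes called. The Cxcl3 difference between 3 and 9 hr (SE 0.26) had a limma adjusted p of 0.12, which became 0.013 when the mouse entered as replicate block and 0.034 without WT mouse 69. Over 14 alternatives the limma adjusted p ranged from 0.013 to 0.29.

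The decline can also be read in each mouse as the percentage of its own highest value that remained, on the linear scale (2 to the power of the rlog). Of the 3-hr peak of Cxcl3, 28.6% to 36.3% remained at 6 hr in the WT mice and 51.0% to 79.3% in the Cpeb4-/- mice, groups that did not overlap at the time of the choice. At 9 hr 12.5% to 18.5% remained in WT (median 13.6%) and 18.3% to 33.5% in Cpeb4-/- (median 22.4%). At 9 hr the groups touched, since the lowest Cpeb4-/- mouse was below the highest WT mouse.

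The steps of Cxcl3 around 6 hr, as values only, were a change of −1.66 ± 0.15 (SD, n = 4 mice) in WT and −0.66 ± 0.31 in Cpeb4-/- from 3 to 6 hr. From 6 to 9 hr they were −1.14 ± 0.23 in WT and −1.43 ± 0.16 in Cpeb4-/-. These steps use the 6 hr values on which the gene was picked, so nothing is read from them about when the genotypes parted.

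For Cxcl1, 35.8% to 48.6% of the 1-hr peak remained at 3 hr in WT (median 37.9%) and 44.7% to 57.0% in Cpeb4-/- (median 53.8%). By 9 hr, 3.14% to 6.32% of the Cxcl1 peak remained in WT and 4.38% to 5.99% in Cpeb4-/-, with overlap. For Cxcl2 the shares were 32.7% to 40.1% in WT and 37.7% to 50.8% in Cpeb4-/- at 3 hr, and 6.81% to 11.1% and 8.21% to 9.91% at 9 hr. Both shares overlapped between the genotypes at both times.

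**Figure D3:**
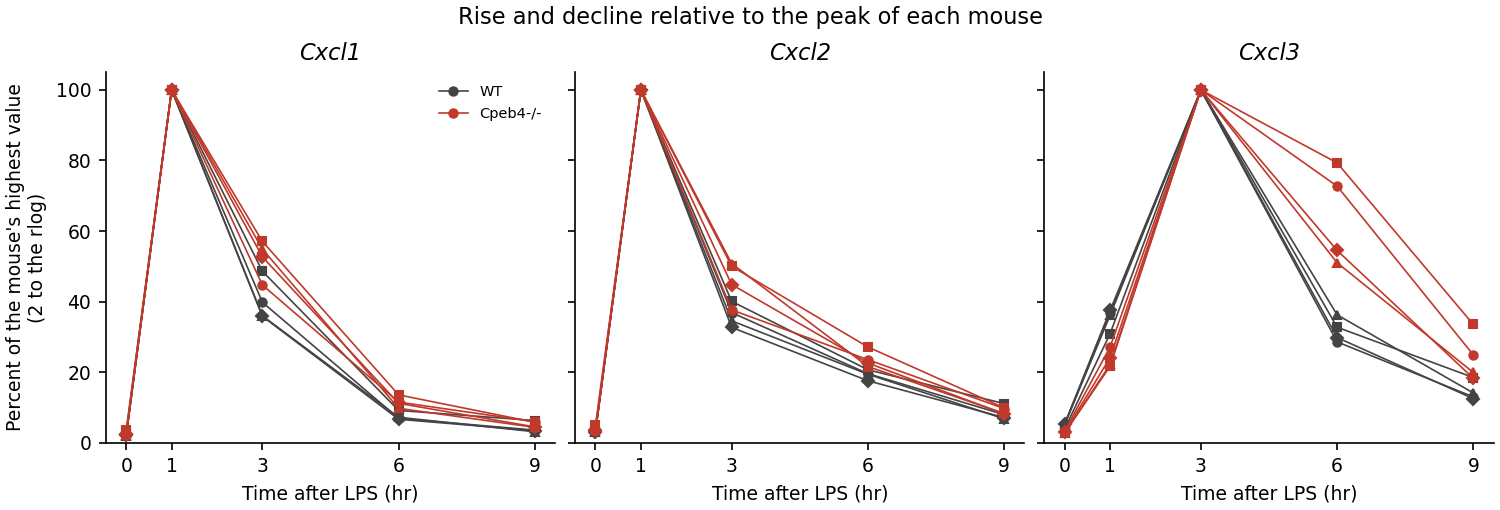
The level of each member as a percentage of the highest value of the same mouse (linear scale, 2 to the rlog), against hours after LPS, with WT in grey and Cpeb4-/- in red and 1 line per mouse. Cxcl1 and Cxcl2 drop from 100% at 1 hr to 3.14% to 11.1% at 9 hr, while Cxcl3 drops from 100% at 3 hr to 12.5% to 18.5% in WT and 18.3% to 33.5% in Cpeb4-/-.

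The difference between 2 members within a library removes any shift that both share. Before LPS, Cxcl3 minus Cxcl2 had a mean of −4.05 (SD 0.04, n = 4) for WT and −4.04 (SD 0.18) for Cpeb4-/-. After 1, 3, 6 and 9 hr it was higher in Cpeb4-/- by 0.40, 0.63, 1.67 and 1.53, and the libraries of the 2 genotypes were apart at each of these 4 times. These values are differences between genes chosen for their behaviour at 6 hr and were not tested.

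Cxcl1 minus Cxcl2 can be read the same way from its reverse. Cxcl2 minus Cxcl1 at 0 hr was 2.60 ± 0.09 and 2.44 ± 0.13 in the 2 genotypes, with overlap. At 3, 6 and 9 hr the genotypes were apart, with a Cpeb4-/- minus WT shift of −0.30, −0.57 and −0.46. Cxcl3 minus Cxcl1 separated the genotypes at 6 and 9 hr, by 1.10 and 1.07, and overlapped at 0, 1 and 3 hr. At 3 hr this overlap came from WT mouse 69 at −0.76, above all Cpeb4-/- libraries (−0.92 to −0.88).

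**Figure D4:**
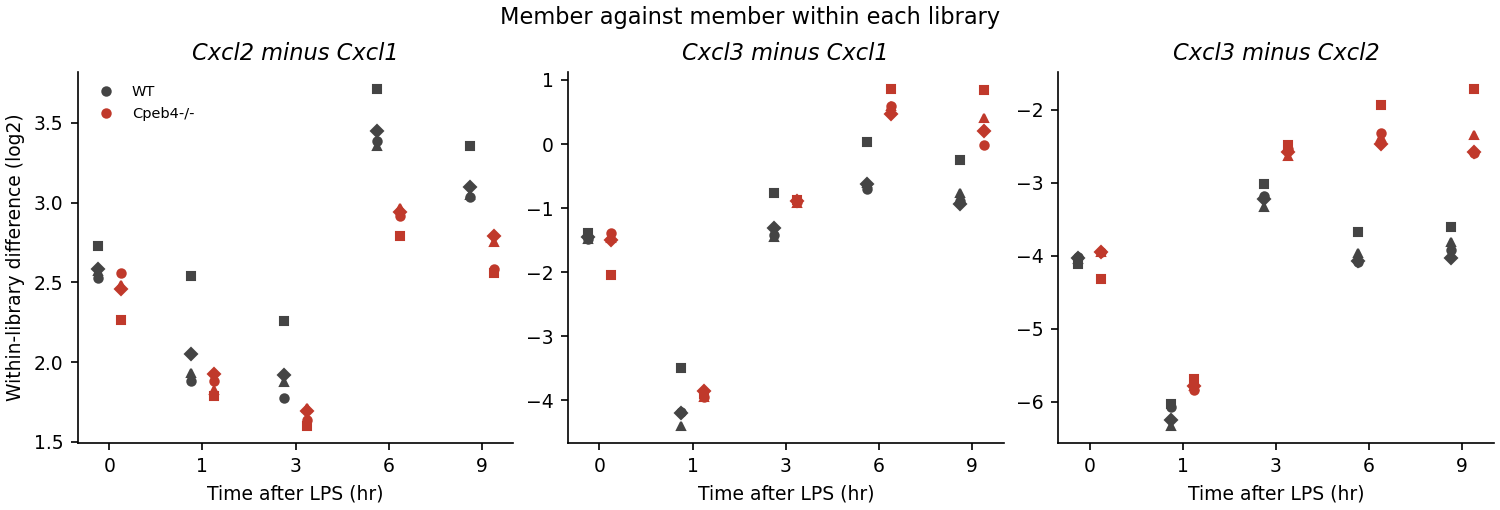
The difference in rlog (log2) between pairs of members within each library, against hours after LPS, with WT in grey and Cpeb4-/- in red and 1 symbol per mouse. Cxcl3 minus Cxcl2 starts level at 0 hr and is apart from 1 hr on, by 1.53 at 9 hr.

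The 3′ untranslated regions of the members differ in their AU-rich elements, which are recognition sites of mRNA decay proteins. In the longest annotated 3′ region of each gene (GENCODE, GRCm38), the pentamer ATTTA occurred 7 times in 592 bases of Cxcl1, 11 times in 1494 bases of Cxcl2 and 5 times in 645 bases of Cxcl3. Of 21020 genes, 13.3%, 5.47% and 21.6% had as many. The nonamer TTATTTATT, which contains the pentamer, occurred 2, 4 and 1 times, and 1.88%, 0.324% and 7.66% of genes had as many. The letters TTTTAT or TTTTAAT, 2 forms of the cytoplasmic polyadenylation element that can overlap the pentamer, occurred 2, 3 and 1 times, which 37.9%, 26.9% and 56.6% of genes matched or exceeded. Cxcl3 had the fewest of each motif by count, but these regions differ in length. Per kb, ATTTA occurred 11.8, 7.36 and 7.75 times in Cxcl1, Cxcl2 and Cxcl3. These densities were matched or exceeded by 0.747%, 2.81% and 2.42% of genes. A shorter annotated 3′ region of Cxcl2, of 734 bases, held the same 11 pentamers, so the density of Cxcl2 depends on the region used. These counts are descriptions of the annotated letters and no binding was measured.

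The 30-base stretch with the most ATTTA in each member is shown to let these elements be compared, with ATTTA in capitals, on the plus strand of GRCm38.
Cxcl1, chr5:90892602-90892631: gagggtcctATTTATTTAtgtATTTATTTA
Cxcl2, chr5:90905327-90905356: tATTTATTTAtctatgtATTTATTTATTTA
Cxcl3, chr5:90787629-90787658: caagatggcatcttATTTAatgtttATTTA

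The stretch held 4 copies in Cxcl1 and 5 in Cxcl2, each in 2 separate runs of overlapping copies, and 2 separate copies in Cxcl3. The coding transcripts of Cxcl2 and Cxcl3 share 61 identical runs of 50 bases, the read length, which is 6.31% of the 967 runs of Cxcl3 and 3.37% of the 1810 runs of Cxcl2, and the Cxcl1 transcript shares none with another gene. Reads from these runs cannot be placed on either gene with certainty.

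Other ligands of CXCR2 lie in the same chromosomal cluster. Cxcl5, next to Ppbp and Pf4 on the far side of Cxcl3, encodes another ELR-positive chemokine and was close to the filter on low values. At 3 hr it was at 2.75 to 3.82 in WT and 4.19 to 4.50 in Cpeb4-/-, a difference of 0.94 (SE 0.21, limma adjusted p = 0.041), and at 9 hr the difference was 0.75 (adjusted p = 0.11). Ppbp, whose product is processed to the neutrophil attractant NAP, was higher in Cpeb4-/- by 0.84 at 9 hr (SE 0.16, limma adjusted p = 0.012), with WT at 4.22 to 4.97 and Cpeb4-/- at 5.22 to 5.47.

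Of the 4 other CXCR2 ligands, which also include Cxcl15 and Mif, 2 passed the filter at 0 and 1 hr and 3 at 3 and 9 hr. None was called at 0 and 1 hr, and 1 was higher in Cpeb4-/- at each of 3 and 9 hr (1.31%, 1.91%, 3.68% and 7.91% of all genes were called at 0, 1, 3 and 9 hr). Pf4, a CXC chemokine without the ELR motif between Ppbp and Cxcl3, was not called at any of the 4 times (−0.54 to −0.04), nor was Mthfd2l beyond Cxcl2 (−0.03 to 0.22).

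**Figure D5:**
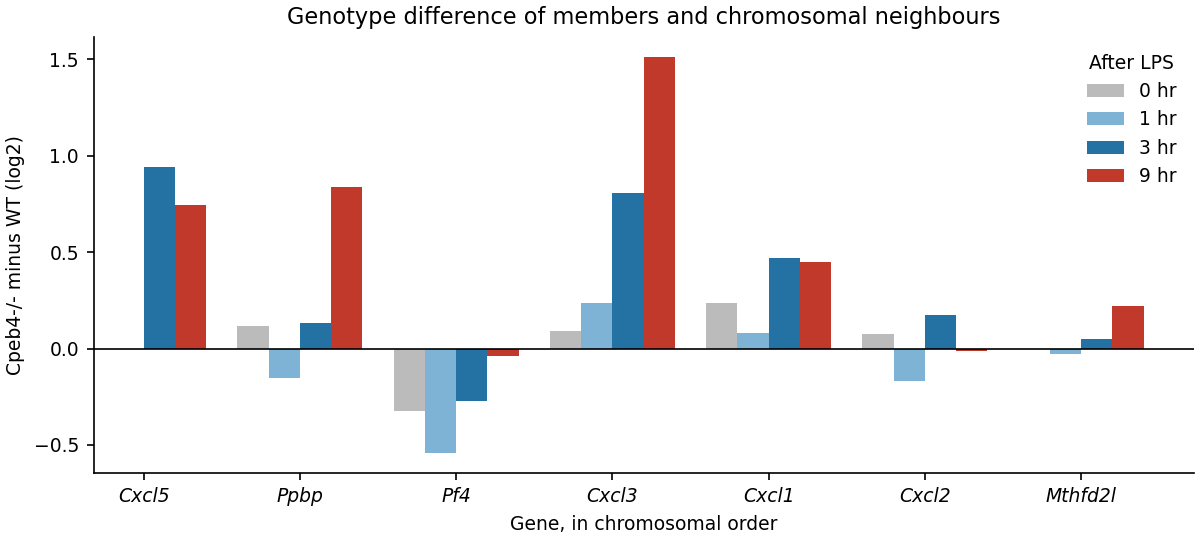
The log2 difference Cpeb4-/- minus WT of the members and 4 chromosomal neighbours, in chromosomal order, with bars for 0, 1, 3 and 9 hr and no bar where the gene was below the filter. Cxcl5 at 3 hr (0.94), Ppbp at 9 hr (0.84), Cxcl3 at 3 and 9 hr (0.81 and 1.51) and Cxcl1 at 3 hr (0.47) passed the test.

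The receptors of these ligands were not measurable here. Cxcr1, Cxcr2 and the decoy receptor Ackr1 lay below the filter at every time (0 of 3 tested), with Cxcr2 between 0.25 and 1.69 over the 40 libraries. Of 9 other CXC chemokines, 6 were tested at each time, and the interferon-induced Cxcl9, a ligand of CXCR3 on T cells, was lower in Cpeb4-/-, with differences of −1.06 at 3 hr (SE 0.19, limma adjusted p = 0.020) and −1.13 at 9 hr (SE 0.15, limma adjusted p = 0.0031). No other gene of this list was called (1.31%, 1.91%, 3.68% and 7.91% of all genes were called at 0, 1, 3 and 9 hr).

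A list of 15 genes held transcription factors and regulators of NF-κB, not sorted into activators and inhibitors. Of these, 0, 1, 2 and 1 were lower in Cpeb4-/- at 0, 1, 3 and 9 hr and 1 was higher, at 9 hr (1.31%, 1.91%, 3.68% and 7.91% of all genes called). They were Cebpb at 1 hr (−0.36, limma adjusted p = 0.036), Egr1 and Jun at 3 hr (−0.35 and −0.30, adjusted p = 0.046 and 0.017), and Fos and the NF-κB subunit gene Rela at 9 hr (0.40 and −0.25, adjusted p = 0.018 and 0.034). Nfkbiz, which encodes a cofactor of NF-κB at late LPS genes, had differences of −0.04, 0.16, 0.08 and −0.05 at 0, 1, 3 and 9 hr (limma adjusted p of at least 0.13). The median of the 15 was −0.01, −0.04, −0.03 and 0.05.

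Among 18 regulators of mRNA stability, 1 was called up and 1 down at 3 hr and 2 up at 9 hr, beside 3.68% and 7.91% of all genes called at those times. The 18 include Cpeb4, the gene targeted in the knockout. Zfp36l1, a relative of tristetraprolin that promotes decay of AU-rich mRNAs, was higher by 0.36 at 3 hr (limma adjusted p = 0.048) and 0.35 at 9 hr (limma adjusted p = 0.019), and Zfp36l2 by 0.29 at 9 hr (adjusted p = 0.031). Arid5a, whose product protects some inflammatory mRNAs from decay, was lower at 3 hr (−0.27, adjusted p = 0.042). Zfp36 itself had differences of 0.09, −0.07, 0.04 and −0.15 and Zc3h12a, which encodes an endonuclease that cleaves inflammatory mRNAs, 0.06, 0.10, 0.11 and −0.07, and none of these passed limma (adjusted p of at least 0.23).

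Of 17 other mediators that act on neutrophils, 0, 1, 2 and 0 were higher in Cpeb4-/- at 0, 1, 3 and 9 hr, and 0, 0, 1 and 4 were lower (1.31%, 1.91%, 3.68% and 7.91% of all genes called). Csf2, which encodes the myeloid growth factor GM-CSF, was higher in Cpeb4-/- by 0.87 at 3 hr (SE 0.14, limma adjusted p = 0.013), as was Ptgs2, the inducible enzyme of prostaglandin synthesis, by 0.35 (adjusted p = 0.031). The difference of Ptgs2 was 0.53 at 1 hr, where the groups did not overlap. At 9 hr it was −0.35, between groups that overlapped, and was not called. At 9 hr Ccl3, Ccl4, Icam1 and Tnf were lower, with differences of −0.60, −0.62, −0.54 and −0.46 (limma adjusted p = 0.014, 0.0061, 0.0017 and 0.024), the direction opposite to that of Cxcl3. The median of the 17 at 9 hr was −0.10. Csf3, the gene of the neutrophil growth factor G-CSF, was not called at 0, 1, 3 or 9 hr (−0.03 to 0.11). At 6 hr, which was not tested, Csf3 lay at 9.05 to 9.39 in WT and 9.60 to 9.76 in Cpeb4-/-, a difference of 0.37.

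Over all 40 libraries, the time courses of Cxcl1 and Cxcl2 were alike (Pearson r = 0.97, a description over libraries that share mice and the LPS response), and Cxcl3 followed them less closely (r = 0.69 with Cxcl1 and 0.71 with Cxcl2). Among genes that varied by at least 2 units between the group means, those most like Cxcl1 were Il23a (r = 0.98), Gem, Tnfsf9, Cxcl2 and Tmem200b. Those most like Cxcl2 were Csrnp1 (r = 0.99), Tnfsf9, Junb, Tnf and Nfkbiz. For Cxcl3 they included Il1bos (r = 0.93), Casp4, Tnfaip2 and Vcam1, none of which was on the list of either other member.

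Markers of other cell types were read beside these results. Neutrophils can make chemokine mRNA themselves, and the summed level of 9 neutrophil markers (log2 of the sum of linear values) was 7.89 to 8.50 in the 20 WT libraries and 8.52 to 9.16 in the 20 Cpeb4-/- libraries. Mmp8 alone was called of the 3 or 4 markers tested, higher in Cpeb4-/- by 0.84, 0.86, 0.73 and 0.73 at 0, 1, 3 and 9 hr (limma adjusted p = 0.0094, 0.0090, 0.032 and 0.00082). Of all genes, 1.31%, 1.91%, 3.68% and 7.91% were called at these times. Without Mmp8 the sum of the other 8 markers was 4.37 to 5.56 in WT and 4.62 to 5.56 in Cpeb4-/-, and the neutrophil surface marker Ly6g stayed between −2.34 and −2.27, near the bottom of the table.

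The summed level of the 9 macrophage markers was 18.98 to 19.50 in WT and 18.66 to 19.14 in Cpeb4-/-. Lyz2, the lysozyme gene, makes up a large part of this sum, and without it the other 8 markers summed to 17.56 to 18.26 in WT and 17.46 to 18.16 in Cpeb4-/-. These ranges pool all times. At 0, 1, 3 and 6 hr the sum of the 8 was lower in every Cpeb4-/- library than in every WT library. It was 17.46 to 17.53 against 17.56 to 17.64 at 0 hr. At 9 hr the groups overlapped (18.02 to 18.14 in Cpeb4-/- and 18.13 to 18.19 in WT). Of the 9 markers 1, 1, 2 and 3 were called lower at 0, 1, 3 and 9 hr and 0 higher (1.31%, 1.91%, 3.68% and 7.91% of all genes were called in either direction). Their median difference was −0.08, −0.01, −0.13 and 0.0068. Cd14, the co-receptor that hands LPS to TLR4, was lower in Cpeb4-/- (−0.32, −0.38, −0.30 and −0.38 at 0, 1, 3 and 9 hr; limma adjusted p = 0.046, 0.013, 0.046 and 0.015), as was Lyz2 at 3 hr (−0.55, adjusted p = 0.011). At 9 hr Cd68 (−0.25) and Fcgr1 (−0.31) were also lower (limma adjusted p = 0.024 and 0.026), while Adgre1, Itgam and Mertk, which were not called, had differences of 0.10, 0.22 and 0.38. Fibroblast, T cell, B cell and dendritic cell markers were mostly below the filter (at most 1 of 6, 0 of 3, 1 of 4 and 3 of 4 tested), and of these only the dendritic cell gene Zbtb46 was called, higher in Cpeb4-/- by 1.10 at 3 hr (limma adjusted p = 0.0068). Xcr1, another dendritic cell gene, went the other way and was not called (−0.93, −0.80, −0.38 and −0.41 at 0, 1, 3 and 9 hr). The summed level of the 4 dendritic cell markers at 3 hr was 7.06 to 7.26 in WT and 6.87 to 7.18 in Cpeb4-/-. At 9 hr the summed level of the 6 fibroblast or stromal markers was 4.49 to 4.79 in WT and 4.74 to 6.13 in Cpeb4-/-. Of the collagen genes Col1a1 and Col1a2 and the receptor gene Pdgfra, all below the filter and so not tested, the Cpeb4-/- minus WT differences at 9 hr were 1.43, 1.22 and 0.52. The groups did not overlap for Col1a1 (WT 1.26 to 1.88, Cpeb4-/- 2.19 to 4.62) and Pdgfra, and overlapped for Col1a2. The part of any of these markers in the chemokine differences was not tested.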

How the data were processed

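RNA of BMDMs from 4 WT and 4 Cpeb4-/- mice was selected for poly(A), amplified and sequenced as 50-base reads. Per the labels and the study's methods, the authors aligned reads with STAR 2.3.0e to mm10, counted them per gene with featureCounts and deposited the DESeq2 regularized log, a log2 scale that is scaled for library size and shrinks differences of weakly expressed genes. Of the 27179 genes, 6395 were at 0 in every library; 0 value columns were left unused and 0 libraries were identical. The analysis started from these values, without reads, so library depth was not used here and no counting interval is given.

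Genotypes were compared at each time with limma 3.58.1 (eBayes with trend, R 4.3.3) over genes that averaged log2 of 5 or more, and times within a genotype or between genotypes with group means of 20 or 40 libraries. Tests were two-sided, p-values were adjusted over all genes by the Benjamini-Hochberg method, and an adjusted p under 0.05 was called. Single genes were also compared by exact permutation (smallest p 0.029). Each mouse gave all 5 times: after removal of group means, 68 of 80 same-mouse pairs correlated over 0.1 (median 0.29; different mice −0.09), and a fit with the mouse as replicate block was an alternative (statmod 1.5.0). Other alternatives were no filter or a minimum of 5, eBayes without trend or robust, quantile normalization, batch as covariate and leaving out each mouse. Fits were tested on simulated data with noise drawn independently for each library. The simulation held no likeness between libraries of a mouse, so it did not check how leaving out the mouse affected fits over time. Named genes were all members and, per list, at most 4 called genes with the largest difference plus Zfp36, Zc3h12a, Nfkbiz and Cxcr2; the 5 most alike genes were taken by Pearson r, of which 1 is not reported here. Outside this rule, Rela, Ptgs2, Tnf, Csf3, Pf4, Mthfd2l, Adgre1, Itgam, Mertk, Xcr1, Col1a1, Col1a2, Pdgfra and Ly6g were named after their values were seen. The members, lists and tests were chosen with earlier results of these data known. Motifs were counted with Python 3.11.15 and figures drawn with matplotlib 3.10.9.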

Additional observations from a re-analysis of the deposited data

Results flagged for a closer look

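In 30 groups of 4 libraries (3 members, 2 genotypes and 5 times), 3 groups held a library far from its 3 neighbours by Dixon's criterion, which chance alone gives in about 1 of 20 groups. Cpeb4-/- mouse 3 was at 9.68 for Cxcl1 at 0 hr, where the other Cpeb4-/- mice were at 8.98 to 9.03, and at 11.94 for Cxcl2 at 0 hr, where the others were at 11.47 to 11.54. WT mouse 69 was at 13.33 for Cxcl2 at 9 hr, where the other WT mice were at 12.69 to 12.73. The change of Cxcl3 from 0 to 9 hr differed between the genotypes by 1.43 (limma adjusted p = 0.0012 for the interaction), with a larger rise in 4 of 4 Cpeb4-/- mice than in any WT mouse.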

How the results depend on the processing

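Of 738 recomputed values, 710 were counted as unchanged. For tested results this meant the same direction and the same side of the threshold. For the 6 hr values, which have no threshold, it meant the same direction and a shift below the pooled SD of the genotypes, and 2 values moved further. Without the filter on low values, Cxcl1 at 3 hr (0.47, limma adjusted p = 0.071) and Cxcl3 at 9 hr (1.51, adjusted p = 0.0503) lost their calls. The Cxcl1 difference at 9 hr (0.45) gained a call with batch as covariate (adjusted p = 0.043), in 1 fit of 40 libraries (0.021) and in that fit with the replicate block (0.017). The Cxcl3 interaction from 3 to 9 hr (0.71) gained one with the replicate block (adjusted p = 0.013), and the block changed no other call. With the exact permutation test (p = 0.029), Cxcl1 at 0 hr (0.24) and Cxcl3 at 0 hr (0.089) and 1 hr (0.24) passed an unadjusted threshold. With quantile normalization Cxcl2 at 9 hr was 0.047. At 6 hr, without a test, Cxcl3 was 2.14 within batch 1 and 1.46 within batch 2, and Cxcl2 was −0.0077 within batch 2. Leaving out 1 mouse at a time changed a call or a sign in these results, given with their lowest and highest values. The genotype differences were −0.033 to 0.125 for Cxcl2 at 0 hr, −0.064 to 0.173 for Cxcl1 and 0.209 to 0.284 for Cxcl3 at 1 hr, 0.424 to 0.519 for Cxcl1 at 3 hr, and 0.349 to 0.544 for Cxcl1 and −0.086 to 0.138 for Cxcl2 at 9 hr. The interactions were −0.288 to 0.0087 for Cxcl1 from 0 to 1 hr, −0.170 to 0.107 for Cxcl1 and 0.538 to 0.831 for Cxcl3 from 3 to 9 hr, and −0.187 to 0.035 for Cxcl2 from 0 to 9 hr. Cxcl1 at 9 hr was called without Cpeb4-/- mouse 2 (limma adjusted p = 0.035) or mouse 62 (0.049), Cxcl1 at 3 hr lost its call without mouse 3 (0.067), and Cxcl3 was called at 1 hr (0.026) and in the interaction from 3 to 9 hr (0.034) without WT mouse 69. Over all alternatives the limma adjusted p of Cxcl3 reached 0.31 at 1 hr and 0.29 in that interaction. The calls of Cxcl3 at 3 hr and in the interaction from 0 to 9 hr held in all alternatives run (limma adjusted p 0.00066 to 0.042 and 2.2e-05 to 0.016). Cxcl1 at 0 hr was 0.069 without Cpeb4-/- mouse 3. The cause of each change was not tested.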
